A study of Mus musculus with 2 samples.

Results

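Cell cycle genes were followed through the immune cells of mouse mammary tumours. The 40 members are a list of genes named for their known place in the cell cycle, mostly in DNA replication or mitosis, out of 31053 genes measured, and all 40 were found. They were divided into 15 S members, which serve DNA synthesis, 22 G2/M members, which serve mitosis, and 3 members that cells outside the cycle also express (Stmn1, Hmgb2 and H2afx). The tumours were grown by injecting cells of the PyMT-M or the PyMT-N tumour line into the mouse mammary gland and harvested 4 weeks later, when they measured 0.7 to 1 cm across. PyMT refers to the polyoma middle T oncogene, and the labels do not say what M and N stand for, nor the strain, age or number of the mice. Viable (DAPI-) immune cells, recognised by the leukocyte antigen CD45, were isolated by sorting. Droplet libraries captured the 5′ ends of their transcripts, which were counted by unique molecular identifier (UMI). Each line gave 1 library, so differences between the tumours could not be tested or checked against replicates, and every interval is a 95% interval of counting error only.

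A dividing cell copies its DNA in S phase and separates the copies in mitosis, after the gap called G2. E2F transcription factors, released from the retinoblastoma protein, switch on replication genes at the start of S phase. The DREAM and MYB-MuvB complexes hold back and then switch on mitotic genes through promoter elements called CHR, often beside CCAAT boxes bound by NF-Y. Among tumour immune cells, macrophages can divide in the tissue and activated T and natural killer (NK) cells divide after stimulation, whereas neutrophils finish dividing in the bone marrow. Neutrophils therefore served as the background.

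The promoters of members that carry these elements are shown because the S and G2/M members, grouped by function, differed in them. RefSeq windows of GRCm38.p6, from 250 bases before a gene's start to a short stretch after it, matched 32 of the 40 members in 35 windows. Searched on both strands, the letters TTTGAA or TTCGAA (CHR) were in 14 of 18 windows of G2/M members (77.8%) and in 2 of 16 windows of S members (12.5%), against 19.2% of all 32851 windows. The letters TTTCGCGC, TTTGGCGC, TTTCCCGC or TTTGCCGC (E2F) were in 6 of 16 S windows (37.5%) and 1 of 18 G2/M windows (5.56%), against 2.26% of all windows. CCAAT was in 16 of 18 G2/M windows (88.9%), 10 of 16 S windows (62.5%) and 37.4% of all windows. None of the searched letters holds another of them whole, and both CHR and CCAAT were in 14 G2/M windows and in 7.52% of all windows. The 5 windows follow, cut to 130 bases before and 30 after the start, in lower case with matches on either strand in capitals. Ccnb2, cyclin B2, lies at chr9:70421525-70421684 on the minus strand, Top2a, topoisomerase II alpha, at chr11:99024160-99024319 on the minus strand, and Cenpa, the histone of the centromere, at chr5:30666756-30666915 on the plus strand.
Ccnb2: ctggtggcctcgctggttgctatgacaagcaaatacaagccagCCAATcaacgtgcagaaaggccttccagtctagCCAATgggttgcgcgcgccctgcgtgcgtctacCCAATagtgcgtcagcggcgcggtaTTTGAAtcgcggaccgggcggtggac
Top2a: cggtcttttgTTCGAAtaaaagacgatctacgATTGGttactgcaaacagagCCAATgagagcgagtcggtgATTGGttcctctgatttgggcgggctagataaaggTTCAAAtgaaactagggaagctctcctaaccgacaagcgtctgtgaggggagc
Cenpa: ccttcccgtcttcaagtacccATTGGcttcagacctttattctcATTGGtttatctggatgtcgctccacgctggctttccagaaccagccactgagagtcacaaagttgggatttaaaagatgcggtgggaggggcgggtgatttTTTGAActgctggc
Mcm3, a subunit of the replicative helicase, lies at chr1:20820283-20820442 on the minus strand, and Pclaf, which binds the sliding clamp PCNA, at chr9:65890193-65890352 on the plus strand.
Mcm3: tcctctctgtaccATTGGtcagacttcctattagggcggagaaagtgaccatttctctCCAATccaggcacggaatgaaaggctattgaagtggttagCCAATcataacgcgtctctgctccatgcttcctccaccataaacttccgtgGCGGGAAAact
Pclaf: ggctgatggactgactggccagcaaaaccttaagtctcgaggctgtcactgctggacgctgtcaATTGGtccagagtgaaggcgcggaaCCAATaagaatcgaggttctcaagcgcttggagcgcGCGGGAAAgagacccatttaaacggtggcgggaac
In these 5 windows the G2/M members carried CHR letters and the S members carried E2F letters (GCGGGAAA on the strand shown). Pclaf and Cenpa are shown also because they differed most between the tumours in macrophages. A match of letters is a description and not a measured binding site.

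PyMT-M gave 7476 barcodes and 43977988 UMIs (median depth 5069.5) and PyMT-N gave 5020 barcodes and 14907736 UMIs (median depth 1955). With filters on genes, mitochondrial UMIs and doublets, 6917 and 4793 cells were kept. Classes were set cell by cell from marker UMIs. The monocyte class held only cells that did not meet the macrophage, neutrophil, dendritic or lymphoid gates. PyMT-M gave 4959 macrophages, 180 monocytes, 624 T cells, 435 NK cells, 95 dendritic cells and 47 neutrophils. PyMT-N gave 602 macrophages, 278 monocytes, 171 T cells, 36 NK cells, 30 dendritic cells and 3326 neutrophils. All markers of each class were detected in it in both libraries, and C1qa, a complement gene of macrophages, had a UMI in 98.9% and 93.2% of the macrophages. Both libraries held 60 cell barcodes in common, and the shares below moved by less than their intervals without them.

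One cell of the PyMT-M neutrophil class stood apart. It held 26573 UMIs, where the next deepest cell of the class held 2495, and 161 of the 169 UMIs of the 37 members in the class. It carried 700 UMIs of Cd74, the invariant chain of MHC class II. Of neutrophil genes it held 89 UMIs of S100a9, 38 of S100a8, 4 of Csf3r and 0 of Retnlg and G0s2. Its neutrophil markers stood at 53.8 and its macrophage markers at 36.5 UMIs per 10000. The summed level of the 40 members in PyMT-M neutrophils was 2789 counts per 1000000 UMIs (CPM) with it and 547 CPM without it, beside 503 CPM in PyMT-N neutrophils. Member levels of PyMT-M neutrophils therefore describe mostly this cell.

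T and NK cells had the highest shares of cycling cells in both tumours, in PyMT-N with intervals that overlapped those of macrophages and dendritic cells, macrophages had lower shares, and monocytes and neutrophils had few or no cycling cells. Each cell was thinned to 1000 UMIs, and shallower cells were left out of the shares. These included 230 PyMT-M and 33 PyMT-N macrophages and 202 PyMT-N neutrophils. A cell was called cycling with at least 3 UMIs from at least 2 of 37 members, leaving out Stmn1, Hmgb2 and H2afx. In PyMT-N neutrophils, the background, 1 of 3124 cells was called (0.0320%, 0.00081 to 0.178%, exact Clopper-Pearson intervals here and below). Among PyMT-N neutrophils already removed as doublets, 3 of 123 (2.44%) met the rule. In PyMT-M macrophages 316 of 4729 cells were cycling (6.68%, 5.99 to 7.43%). In PyMT-N macrophages the share was 65 of 569 (11.4%, 8.93 to 14.3%), so that the intervals of the tumours did not overlap. T cells were cycling in 95 of 622 (15.3%, 12.5 to 18.3%) in PyMT-M and 29 of 166 (17.5%, 12.02 to 24.1%) in PyMT-N. NK cells were cycling in 67 of 429 (15.6%, 12.3 to 19.4%) in PyMT-M and 10 of 36 (27.8%, 14.2 to 45.2%) in PyMT-N. For both lymphoid classes the intervals of the tumours overlapped. Dendritic cells were cycling in 5 of 95 (5.26%, 1.73 to 11.9%) and 5 of 29 (17.2%, 5.85 to 35.8%), and monocytes in 1 of 178 (0.562%, 0.0142 to 3.09%) and 4 of 273 (1.47%, 0.401 to 3.71%). Macrophages, the largest class of PyMT-M, made up 59.8% of its cycling cells and 50.8% of those of PyMT-N. The only cycling call among 42 PyMT-M neutrophils was the deep cell described above.

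**Figure D1:**
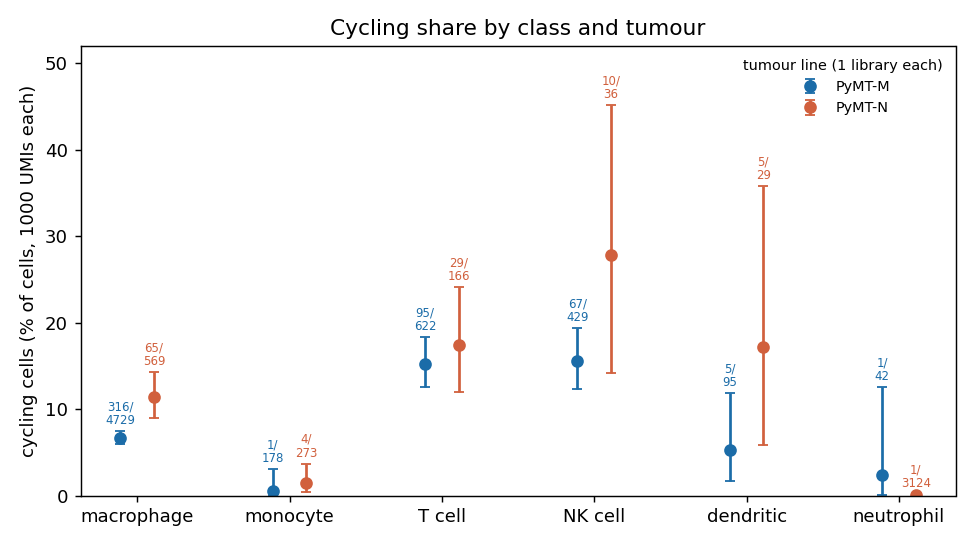
Share of cycling cells (%, vertical axis) in 6 immune cell classes of PyMT-M (blue) and PyMT-N (orange), 1 library each. Points are shares after thinning each cell to 1000 UMIs, bars are 95% Clopper-Pearson intervals of counting error, and numbers give cycling over all cells. Macrophages sit at 6.68% and 11.4% with intervals that do not overlap, whereas those of T, NK and dendritic cells overlap.

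Without thinning, the shares were higher and their order for T and NK cells turned. Unthinned, the rule was met by 33.8% (PyMT-M) and 25.7% (PyMT-N) of T cells and by 40.7% and 38.9% of NK cells, while median depths were 4242 and 2971 UMIs in T cells and 6310 and 4217.5 in NK cells. Macrophages stayed lower in PyMT-M, at 22.4% against 31.1%, with median depths of 4867 and 4603 UMIs. The unthinned share in PyMT-N neutrophils was 0.361%, at a median of 1690 UMIs. In 20 other draws of the thinning the macrophage share ran from 6.51 to 6.98% in PyMT-M and from 9.49 to 13.01% in PyMT-N, without overlap. Thinned to 500 UMIs, the macrophage shares were 3.67% (3.16 to 4.23%) and 5.32% (3.66 to 7.42%), so that their intervals overlapped. Over those draws T cells ran from 12.9 to 16.7% and from 16.3 to 21.1%.

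The call did not rest on cells just at the threshold alone. Of the 4729 thinned macrophages of PyMT-M, 26.7% had at least 1 UMI of the 37 members, 3.79% at least 5 and 0.825% at least 10. In PyMT-N macrophages the values were 35.7%, 6.503% and 0.527%, so that at 10 UMIs the order of the tumours turned, with 39 and 3 cells. In T cells of PyMT-M 10.6% had at least 5 UMIs and 4.18% at least 10, and the highest cell had 26. In PyMT-N neutrophils 8.55% of cells had at least 1 UMI and none had more than 3. Just below the threshold, 171 PyMT-M and 34 PyMT-N macrophages had exactly 2 member UMIs, and of the called cells 83 and 16 had exactly 3.

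**Figure D2:**
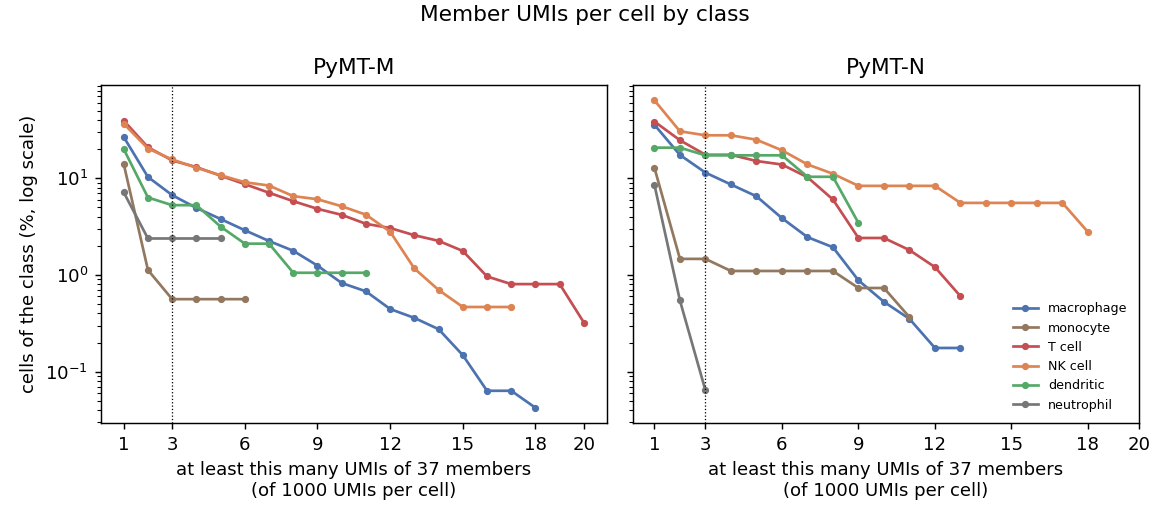
Share of cells (%, logarithmic axis) with at least the number of member UMIs on the horizontal axis, for 37 members and 1000 UMIs per cell, by class, drawn up to 20 UMIs. The dotted line marks the threshold of 3 UMIs. The PyMT-N neutrophil curve ends at 3 UMIs, while T, NK and macrophage curves run past 10 in both tumours.

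Within macrophages, cycling cells were more frequent where MHC class II was low. MHC class II genes (H2-Aa, H2-Ab1, H2-Eb1 and Cd74) present antigen and mark one end of the macrophage spectrum. When each library's macrophages were divided at their median share of MHC class II UMIs, 220 of 2365 cells of the lower part were cycling in PyMT-M (9.30%, 8.16 to 10.5%) and 96 of 2364 of the upper part (4.06%, 3.30 to 4.94%). In PyMT-N the lower part held 46 of 285 (16.1%, 12.1 to 20.9%) and the upper part 19 of 284 (6.69%, 4.08 to 10.3%). Summed over whole cells, MHC class II stood at 32130 CPM in cycling and 47621 CPM in other PyMT-M macrophages, and at 15463 and 29049 CPM in PyMT-N. Median depths were alike in both parts in PyMT-M (5049 and 5038.5 UMIs) and differed in PyMT-N (3753 and 5833.5 UMIs). The part of depth in the PyMT-N difference was not tested.

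The cycling share of PyMT-M macrophages differed by the level of macrophage markers, with no single direction. It was 10.4% (32 of 309) in cells with 150 to 300 marker UMIs per 10000, 11.0% (150 of 1365) at 300 to 500, 4.94% (99 of 2005) at 500 to 800 and 3.25% (31 of 954) at 800 or more. In PyMT-N the same bins gave 12.2% (27 of 222), 13.7% (16 of 117), 12.8% (5 of 39) and 9.09% (1 of 11). The lowest bin, 60 to 150, held 4.17% (4 of 96) and 8.89% (16 of 180). The PyMT-N share was the higher in each of the 5 bins, the last with 11 PyMT-N cells, but the intervals of the tumours overlapped in each of them. Macrophages with a UMI of Ly6c2 or Ccr2, genes of recently arrived monocytes, were cycling in 6.72% (18 of 268) and those without in 6.68% (298 of 4461) in PyMT-M. In PyMT-N the shares were 3.45% (4 of 116, 0.947 to 8.59%) and 13.5% (61 of 453, 10.5 to 17.0%).

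Among T cells of PyMT-N, the highest share of the subsets was in cells with gamma-delta receptor genes. The receptor of gamma-delta T cells differs from that of CD4 and CD8 T cells. These genes are not particular to such cells here. In non-cycling PyMT-M cells they summed to 471 CPM in T cells and 389 CPM in NK cells. Cells with gamma-delta receptor genes and no Cd4 or Cd8 UMI were cycling in 16 of 46 (34.8%, 21.4 to 50.2%) in PyMT-N and 23 of 141 (16.3%, 10.6 to 23.5%) in PyMT-M, with median depths of 4490.5 and 5680 UMIs, and the intervals overlapped. With the subset also read at 1000 UMIs the values were 9 of 29 (31.0%) and 12 of 89 (13.5%), with intervals of 15.3 to 50.8% and 7.17 to 22.4%. CD8 T cells, the cytotoxic subset, were cycling in 60 of 360 (16.7%, 12.97 to 20.9%) in PyMT-M and 6 of 28 (21.4%, 8.30 to 41.0%) in PyMT-N. Regulatory T cells, marked by Foxp3, had no cycling cell among 8 in PyMT-M and 22 in PyMT-N, with Clopper-Pearson upper limits of 36.9% and 15.4%. Their median depths were 2480 and 1869 UMIs. Of all T cells with 1000 to 2000 UMIs, 3 of 35 in PyMT-M and 0 of 45 in PyMT-N were cycling, and the part of depth was not tested. CD4 T cells without Foxp3 were cycling in 4 of 27 (14.8%) and 2 of 25 (8%).

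Cycling lymphoid cells were also the deeper ones. Cycling T cells had a median of 7999 UMIs against 3875 in other T cells in PyMT-M, and 7424 against 2515 in PyMT-N. In NK cells the medians were 10428 against 5778 in PyMT-M and 9501 against 3515.5 in PyMT-N. Of T cells with 10000 or more UMIs, 36 of 51 (70.6%) were cycling in PyMT-M and 8 of 9 (88.9%) in PyMT-N, whereas of those with 2000 to 4000 UMIs 8 of 251 (3.19%) and 1 of 70 (1.43%) were. Macrophages differed less, with medians of 5637.5 in cycling and 5010 in other cells in PyMT-M and 4520 and 4878 in PyMT-N. Among the cells removed as doublets, 22 of 234 PyMT-M macrophages (9.40%) and 4 of 8 PyMT-M T cells would have been called. The part of doublets among the deep cycling lymphocytes was not tested. In PyMT-M T cells, macrophage markers stood at 144 CPM in cycling and 195 CPM in other cells, monocyte markers at 277 and 549 CPM and dendritic cell markers at 11.99 and 48.5 CPM. In PyMT-N T cells, macrophage markers stood at 28.0 and 39.6 CPM, whereas monocyte markers (748 and 379 CPM), dendritic cell markers (216 and 96.5 CPM) and NK cell markers (240 and 134 CPM) were higher in the cycling cells. In PyMT-N 1 cycling T cell held 403 of the 419 MHC class II UMIs of the 29.

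Dendritic cells with Xcr1 or Clec9a, of type 1, were cycling in 2 of 26 in PyMT-M and 1 of 9 in PyMT-N. Those with Cd209a, of type 2, were cycling in 3 of 35 and 2 of 10. Those with Ccr7, Fscn1 or Ccl22, genes of mature migrating cells, were cycling in 0 of 26 (upper limit 13.2%) and 1 of 8. In PyMT-N neutrophils with at least 2 of the granule genes Ngp, Camp and Ltf, which immature cells express, 0 of 47 were cycling (upper limit 7.55%).

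Phases were read next, in the same draw of the thinning. A cycling cell was called S or G2/M by the larger sum of UMIs of the 15 or 22 genes, and even otherwise. In PyMT-M macrophages 124 of 316 cells were S (39.2%, 33.8 to 44.9%), 177 G2/M (56.0%) and 15 even. In PyMT-N macrophages 24 of 65 were S (36.9%, 25.3 to 49.8%), 33 G2/M (50.8%, 38.1 to 63.4%) and 8 even, so that the intervals of both phases overlapped there. T cells had 42 S and 44 G2/M cells of 95 in PyMT-M and 10 and 14 of 29 in PyMT-N. NK cells had 33 and 32 of 67 in PyMT-M and 3 and 7 of 10 in PyMT-N. In each of these 3 classes the interval of the S share overlapped between tumours. Single calls rested on few UMIs (a median of 5 in cycling macrophages), and the S share of PyMT-M macrophages in this draw lay below those of 20 other draws, which ran from 39.4 to 47.7% with a median of 42.9%. In PyMT-N macrophages the other draws ran from 25.9 to 44.1%. With all UMIs of each cell, 1113 PyMT-M macrophages met the rule in place of 316, and 66.2% of them were S. This changes both the cells called and the UMIs read in each, so the order of the phases depends on how cells are called. In the cells called cycling, S members made up 34.3% of the S and G2/M UMIs at full depth in PyMT-M macrophages and 41.3% in PyMT-N.

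Levels of the members, as UMIs summed per class, were highest in T and NK cells. In PyMT-M their order differed from that of the cycling shares, with T cells above NK cells and dendritic cells above macrophages. In bulk sums a higher level can come from more cycling cells or more RNA per cell. In PyMT-M and PyMT-N respectively, the 40 members summed to 1145 and 1382 CPM in macrophages, 3977 and 5340 CPM in T cells, 3526 and 8460 CPM in NK cells, 1605 and 4204 CPM in dendritic cells and 402 and 580 CPM in monocytes. In PyMT-M 23 members were highest in T cells, 9 in NK cells and 8 in the neutrophil class with its deep cell. In PyMT-N 27 were highest in NK cells, 9 in T cells and 4 in dendritic cells, and 32 were lowest in neutrophils. Many neighbouring levels rest on few UMIs: 17 of 40 members reached 20 UMIs in PyMT-N NK cells and 9 of 40 in PyMT-N dendritic cells.

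Hmgb2, a chromatin protein, had the highest level in each class of either tumour. It stood at 200 and 228 CPM in PyMT-M and PyMT-N macrophages and at 383 CPM in PyMT-N neutrophils, where it made up most of the 503 CPM of all members. Stmn1, which destabilises microtubules, was at 5.32 CPM in PyMT-N neutrophils, against 140 CPM in PyMT-N macrophages and 732 CPM in PyMT-N T cells. Pcna, the sliding clamp, was at 32.4 CPM and the helicase subunit Mcm4 at 10.1 CPM in PyMT-N neutrophils. Of the G2/M members the highest there was Cenpa at 8.42 CPM, and Ccnb1 and Kif20a had 0 UMIs. G2/M members summed to 20.4 CPM and S members to 65.3 CPM in those neutrophils, against 518 and 435 CPM in PyMT-N macrophages.

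**Figure D3:**
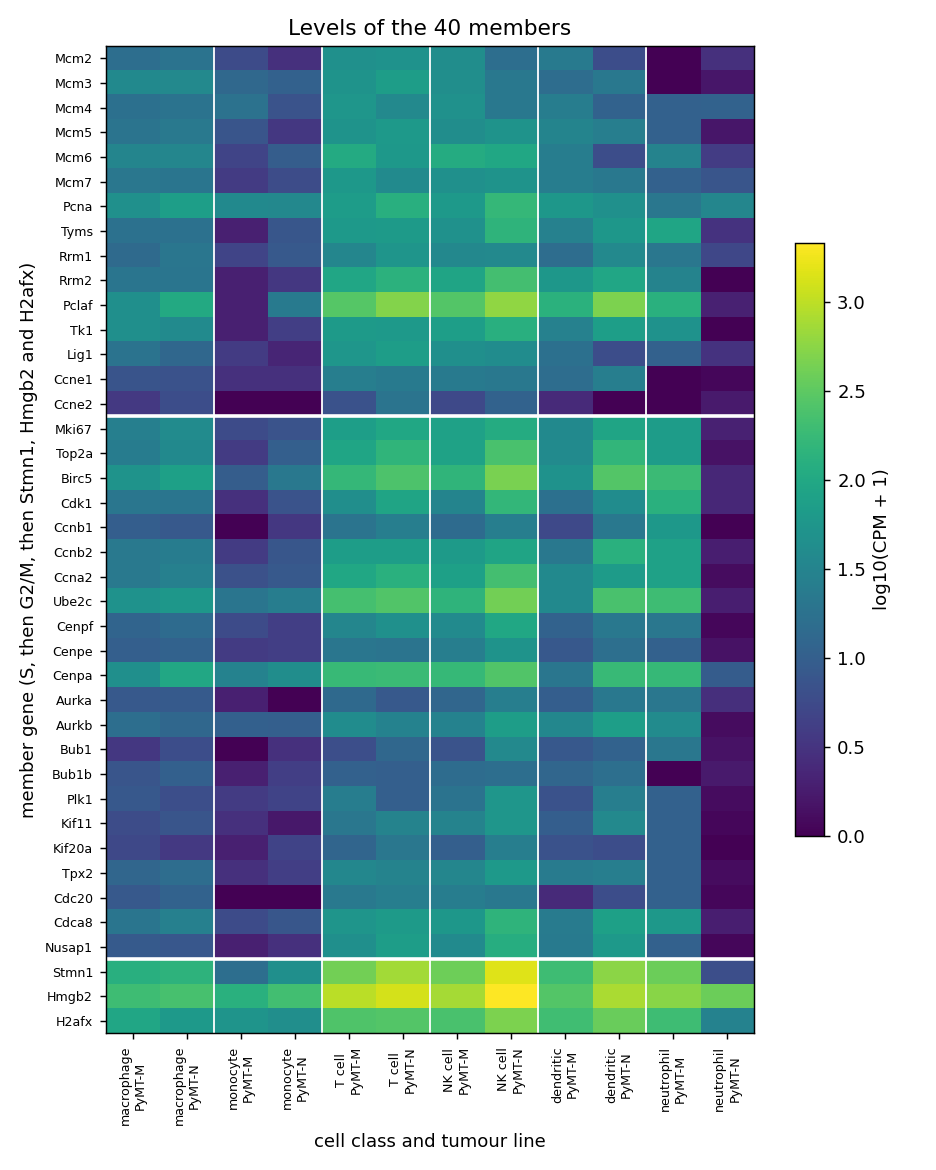
Level of the 40 members (rows) in 6 classes of each tumour (columns), as log10 of CPM + 1. S members are above the first white line, G2/M members between the lines and Stmn1, Hmgb2 and H2afx below. T and NK columns are the brightest, the PyMT-N neutrophil column is dark for the G2/M members, and the PyMT-M neutrophil column is set mostly by 1 cell.

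In macrophages the members summed higher in PyMT-N, by a log2 ratio of 0.27 (0.23 to 0.32). Ratios here are PyMT-N over PyMT-M, with 1 CPM added to each level for single genes, and their intervals are of the ratio without it. These intervals count each UMI as independent and leave out the spread between cells. G2/M members stood at 377 and 518 CPM (log2 ratio 0.46, 0.38 to 0.53) and S members at 349 and 435 CPM (0.32, 0.24 to 0.40). At least 2-fold higher in PyMT-N were 2 of 40 members, beside 3.41% of 11595 genes, and at least 2-fold higher in PyMT-M were 0 of 40, beside 8.20%. The median log2 ratio of the members was 0.19 and that of all genes -0.18. Scaling by the median ratio of well-measured genes moved each macrophage value by 0.19, and turned the sign of members with ratios between -0.19 and 0.

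The members with the highest ratios in macrophages were Pclaf and Cenpa. Pclaf stood at 45.1 and 103 CPM in the PyMT-M and PyMT-N macrophages (log2 ratio 1.18, 1.02 to 1.37). Cenpa stood at 44.3 and 99.6 CPM (1.15, 0.99 to 1.35). After thinning, Cenpa had a UMI in 2.79% of PyMT-M and 8.79% of PyMT-N macrophages, and Pclaf in 2.79% and 7.38%. Both were higher in PyMT-N by this measure too, which reads UMIs of the same cells and is not separate support.

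Replication genes divided in macrophages. Pcna stood at 45.7 and 72.8 CPM (log2 ratio 0.66, 0.46 to 0.88). Of the 6 helicase subunits Mcm2 to Mcm7, the log2 ratios ran from -0.09 (Mcm7) to 0.21 (Mcm5), and each interval included 0. Lig1, the ligase that joins Okazaki fragments, was lower in PyMT-N, at 17.4 and 11.98 CPM (-0.51, -1.06 to -0.06). Of the genes that make nucleotides, Rrm1, the large subunit of ribonucleotide reductase, stood at 13.1 and 19.5 CPM (0.54, 0.16 to 0.97). Its partner Rrm2 was at 19.0 and 18.9 CPM, thymidylate synthase Tyms at 16.5 and 16.4 CPM, and thymidine kinase Tk1 at 44.7 and 37.8 CPM, with intervals that included 0. Cyclin E2 (Ccne2) was low, at 2.60 and 5.04 CPM (0.75, 0.07 to 1.75), and cyclin E1 (Ccne1) at 6.44 and 5.99 CPM.

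Of the mitotic members, the chromosomal passenger genes moved apart in macrophages. Birc5 stood at 49.9 and 76.3 CPM (log2 ratio 0.60, 0.41 to 0.81) and Cdca8 at 18.5 and 27.4 CPM (0.55, 0.22 to 0.90). The kinase of the same complex, Aurkb, was at 14.9 and 11.98 CPM, with an interval that included 0. Top2a stood at 24.01 and 36.9 CPM (0.60, 0.32 to 0.91) and Mki67, which coats mitotic chromosomes, at 26.2 and 39.1 CPM (0.56, 0.29 to 0.85). Bub1, a spindle checkpoint kinase, was at 2.49 and 5.04 CPM (0.79, 0.13 to 1.82). Intervals included 0 for the cyclins Ccna2, Ccnb1 and Ccnb2 and their kinase Cdk1, for the mitotic kinases Plk1 and Aurka, and for the checkpoint gene Bub1b. They also did so for the ubiquitin pathway genes Cdc20 and Ube2c and the spindle and kinetochore genes Cenpe, Cenpf, Kif11, Kif20a, Tpx2 and Nusap1. Their log2 ratios ran from -0.60 (Kif20a) to 0.48 (Bub1b).

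H2afx, the histone variant marked at DNA breaks, went against most members, at 93.5 and 61.2 CPM in macrophages of PyMT-M and PyMT-N (log2 ratio -0.60, -0.83 to -0.40). Stmn1 was at 126 and 140 CPM (0.15, 0.01 to 0.30) and Hmgb2 at 200 and 228 CPM (0.19, 0.07 to 0.30). H2afx stayed lower in PyMT-N after the median-ratio scaling, since its ratio is larger than the shift. Reads of Ccnb1, Tyms and Pcna could be shared with annotated pseudogene copies, so their levels are less certain.

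**Figure D4:**
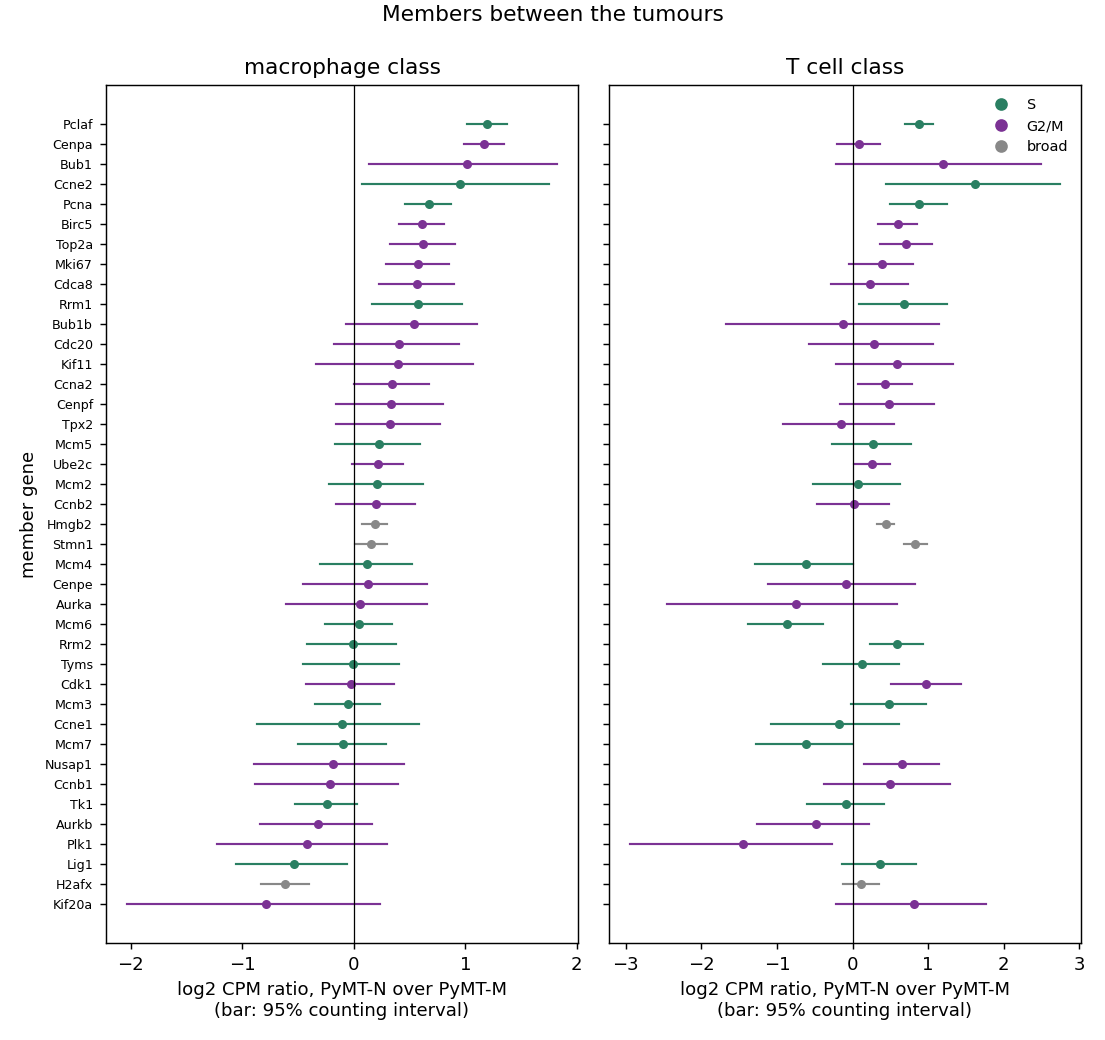
Log2 ratio of CPM, PyMT-N over PyMT-M, of each of the 40 members in macrophages (left) and T cells (right), in the order of the macrophage ratios. Points are ratios without an added count, bars their 95% counting intervals, and colours mark S, G2/M and broad members. Pclaf and Cenpa lie farthest right in macrophages, while in T cells Pclaf is also to the right and the Cenpa interval spans 0.

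In T cells, where the members summed to 3977 and 5340 CPM, the log2 ratio was 0.43 (0.37 to 0.48). At least 2-fold higher in PyMT-N were 2 of 40 members, beside 4.53% of 8634 genes. They were Ccne2 (19 and 12 UMIs, log2 ratio 1.47, 0.45 to 2.74) and Bub1 (17 and 8 UMIs, with an interval that included 0). At least 2-fold higher in PyMT-M was Plk1, a mitotic kinase, at 24.9 and 9.12 CPM (-1.36, -2.94 to -0.27), beside 9.64% of genes. Pclaf stood at 283 and 520 CPM (0.88, 0.69 to 1.06), Pcna at 67.7 and 125 CPM (0.87), Stmn1 at 412 and 732 CPM (0.83) and Cdk1 at 44.0 and 86.6 CPM (0.96, 0.51 to 1.43). The helicase subunit Mcm6 was lower in PyMT-N, at 108 and 59.2 CPM (-0.85, -1.38 to -0.38). When cells with any UMI of another class's markers were left out, 105 and 35 thinned T cells were left and the sum was lower in PyMT-N (log2 ratio -1.41). The direction in T cells therefore depends on how the class is drawn. Cells kept in this way were shallow, whereas cycling T cells were the deeper ones, and the part of depth was not tested.

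In NK cells, with sums of 3526 and 8460 CPM, the log2 ratio was 1.26 (1.19 to 1.34), from 435 and 36 cells. With 10 cycling NK cells in PyMT-N, this interval of UMI counts is narrower than one that allowed for differences between cells. At least 2-fold higher in PyMT-N were 19 of 39 members with 20 UMIs, beside 6.05% of 8022 genes, and at least 2-fold higher in PyMT-M were 3 of 39, beside 19.8%. The G2/M members gave 13 of 22 and the S members 4 of 14. Cdk1, the kinase that drives mitosis, stood at 31.3 and 157 CPM (2.29, 1.69 to 2.93), Stmn1 at 391 and 1473 CPM (1.91, 1.72 to 2.10) and Birc5 at 152 and 452 CPM (1.56, 1.23 to 1.90). The 3 members higher in PyMT-M were the helicase subunits Mcm2, Mcm3 and Mcm4, with 3, 4 and 4 UMIs in PyMT-N and intervals that included 0. Without cells holding a UMI of another class's markers, the NK ratio was -0.09 (-2.41 to 1.52).

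In dendritic cells, with sums of 1605 and 4204 CPM, the log2 ratio was 1.39 (1.26 to 1.52), from 95 and 30 cells. At least 2-fold higher in PyMT-N were 13 of 21 members with 20 UMIs, beside 3.62% of 4552 genes, and at least 2-fold higher in PyMT-M were 0 of 21, beside 13.3%. Cenpa stood at 19.1 and 175 CPM (3.13, 2.24 to 4.24), Ube2c at 36.8 and 237 CPM (2.66) and Pclaf at 135 and 475 CPM (1.80, 1.38 to 2.24). Pcna was at 57.4 and 46.4 CPM, with an interval that included 0. The class held 5 cycling cells in each tumour. In PyMT-N these cells held 158 of the 174 S UMIs and 294 of the 306 G2/M UMIs of the class. In PyMT-M they held 251 of 337 and 251 of 291. The dendritic intervals of UMI counts are therefore narrower than ones that allowed for differences between cells. Without cells holding a UMI of another class's markers, the dendritic ratio was -0.75 (-3.85 to 1.21). In monocytes 3 of 11 members with 20 UMIs passed 2-fold toward PyMT-N, beside 3.14% of 7411 genes, and 1 of 11 (Mcm4) toward PyMT-M, beside 4.06%. Pclaf had 1 UMI in PyMT-M monocytes (0.95 CPM) and stood at 22.4 CPM in PyMT-N monocytes. The 4 cycling PyMT-N monocytes held 69 of the 184 S UMIs and 177 of the 268 G2/M UMIs of their class, so monocyte ratios also rest on few cells.

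Other genes of the cell cycle, outside the 40 members, were read in the cycling cells as a measure that the call had not used. In PyMT-M macrophages at least 2-fold higher in cycling than in other cells were 40 of 41 measured genes of origin licensing and replication. All 47 genes of condensation, kinetochore and spindle were, and 19 of 21 of cytokinesis and mitotic exit, beside 5.78% of 11396 genes. Their median log2 ratios were 2.25, 3.71 and 3.55, against 0.01 over all genes. In PyMT-N macrophages the counts were 31 of 33, 22 of 23 and 9 of 12, beside 6.45% of 8126 genes. In PyMT-M T cells they were 37 of 40, 38 of 39 and 15 of 17, beside 6.70% of 8174 genes, and in PyMT-N T cells 17 of 20, 13 of 14 and 8 of 11, beside 11.0% of 3615 genes. In PyMT-M NK cells they were 34 of 39, 36 of 38 and 16 of 17, beside 6.02% of 7841 genes.

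Single genes show the levels behind these counts. Cks1b, a subunit of cyclin-dependent kinases, stood at 238 CPM in cycling and 22.5 CPM in other PyMT-M macrophages, and at 223 and 38.3 CPM in PyMT-N. Pimreg, a mitotic gene, was at 81.3 and 0.996 CPM in PyMT-M macrophages and at 49.5 and 0.729 CPM in PyMT-N. Clspn, which signals stalled forks, was at 36.7 and 1.27 CPM in PyMT-M macrophages, and Asf1b, a histone chaperone, at 78.3 and 4.38 CPM. Foxm1, the factor that drives mitotic genes, was at 37.2 and 0.677 CPM, and E2f8, a repressor of the E2F family, at 46.5 and 2.11 CPM. Tfdp1, the partner of E2F proteins, was at 117 and 37.3 CPM. These genes were higher in cycling cells, and H2afz, an abundant histone variant, was so at a high level of 2935 and 711 CPM.

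G1 genes differed less between cycling and other cells. Of 11 measured G1 cyclins, kinases and Rb family genes, 3 were at least 2-fold higher in cycling PyMT-M macrophages, with a list median of 0.30. Cdk4, the kinase of D cyclins, stood at 269 and 130 CPM, Ccnd3, cyclin D3, at 52.9 and 30.4 CPM, Cdk2 at 40.6 and 11.2 CPM and the Rb relative Rbl1 at 29.9 and 6.57 CPM.

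Genes that restrain the cycle did not move together. Of 13 inhibitors and arrest genes in PyMT-M macrophages, 4 were at least 2-fold higher and 1 at least 2-fold lower in cycling cells, beside 5.78% and 3.24% of genes, with a median log2 ratio of 0.23. The CDK4 and CDK6 inhibitors Cdkn2c and Cdkn2d were higher, Cdkn2c at 98.9 and 8.68 CPM in PyMT-M and 66.9 and 5.83 CPM in PyMT-N, and Cdkn2d at 93.01 and 20.9 CPM and at 54.5 and 24.1 CPM. The antiproliferative genes Btg1 and Btg2 were lower. Btg1 stood at 217 and 377 CPM in PyMT-M macrophages and 134 and 309 CPM in PyMT-N, and Btg2 at 516 and 816 CPM and at 119 and 273 CPM. In T cells Btg1 was at 443 in cycling and 1253 CPM in other cells in PyMT-M, and 224 and 794 CPM in PyMT-N. Cdkn1a (p21), an inhibitor that p53 induces, was at 40.8 and 9.27 CPM in PyMT-M T cells and 164 and 34.6 CPM in PyMT-N T cells. In PyMT-M macrophages Cdkn1a was at 131 and 145 CPM, a difference whose interval included 0, and in PyMT-N macrophages at 96.6 and 163 CPM (log2 ratio -0.75, -1.27 to -0.28).

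The same lists separated cells called S from cells called G2/M, which had been called on members only. In PyMT-M macrophages 28 of 41 replication genes were at least 2-fold higher in S cells (beside 3.91% of 7524 genes) and none was so in G2/M cells (beside 3.48%). Of the kinetochore and spindle genes 18 of 46 were at least 2-fold higher in G2/M cells and 1 in S cells, and of the cytokinesis genes 11 of 21 and 0. The medians of the log2 ratios, S over G2/M, were 1.34, -0.74 and -1.10 for the 3 lists, beside 0.03 over all genes. In PyMT-N macrophages the medians were 1.80, -0.73 and -1.12, in PyMT-M T cells 0.68, -0.92 and -1.19, and in PyMT-M NK cells 1.15, -0.84 and -1.04. Slbp, which binds histone transcripts made in S phase, had a log2 ratio of 1.81 in PyMT-M macrophages, and Pimreg one of -1.997.

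**Figure D5:**
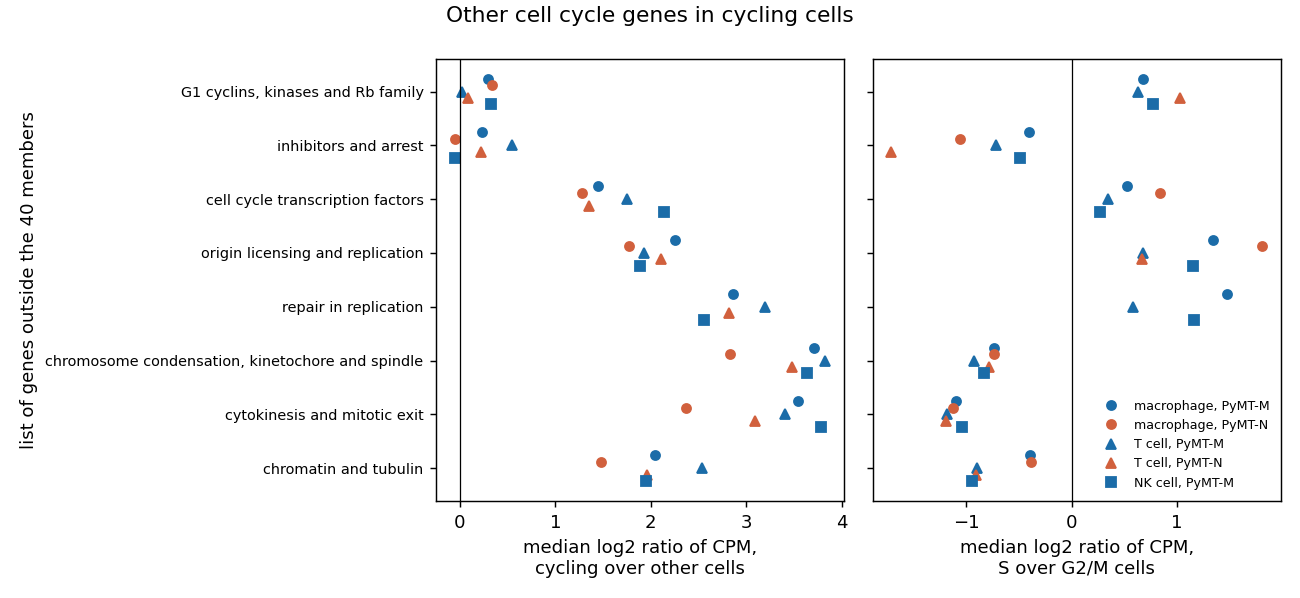
Median log2 ratio of CPM in 8 lists of cell cycle genes outside the 40 members, cycling over other cells (left) and S over G2/M cells (right), for lists with at least 3 genes of 20 UMIs. Circles are macrophages, triangles T cells and squares NK cells, in blue for PyMT-M and orange for PyMT-N. Replication lists lie right of 0 in both panels, kinetochore and cytokinesis lists lie left of 0 in the right panel, and inhibitors lie near 0 in the left one.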

How the data were processed

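The values of both libraries were deposited as whole UMI counts for each gene in each barcode, not normalised. The authors used Cell Ranger and Seurat with build mm10, per the submitters' processing notes, and the file headers name software version 3.1.0. Other versions and the annotation are not given in the sources used here, and no cell annotation by the authors was used.

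Cells needed 200 genes or more, and mitochondrial UMIs could be up to 10%. Doublets were scored with Scrublet in scanpy 1.11.5. Its automatic threshold marked 0 cells, so the cells with the highest scores were removed at 0.8% per 1000 barcodes, 440 and 201 cells. A cell joined a class with at least 2 different markers and a minimum of marker UMIs per 10000: 60 for macrophages, 20 for neutrophils, 10 for monocytes and T cells, and 5 for NK and dendritic cells. T and NK cells were divided by the larger sum, and lymphoid gates came before monocyte and dendritic ones. Macrophage, neutrophil and dendritic gates also came before the monocyte gate, so cells that met it too stayed in those classes. Cells meeting several gates beyond these rules were left out as ambiguous (187 and 55). Minimums were set after marker levels had been seen. Just above the macrophage minimum, up to 90 per 10000, lay 43 and 69 class cells, and just below it, from 40, lay 63 and 82 cells.

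UMIs were summed per class and library as CPM, with exact Poisson, Clopper-Pearson and conditional binomial intervals. Genes compared needed 20 UMIs over both sides, called meant at least 2-fold, and the pseudocount was 1 CPM. PCR errors are not covered by the intervals, and those of levels and ratios do not cover the spread of UMIs between cells. Of other lists, the text names the 2 genes with the highest CPM and the 2 with the largest ratio in PyMT-M macrophages, or fewer; genes named in T cells, and members named beside a count, were chosen after their values were seen. The members and lists were chosen with earlier results of these data known. The cycling call and the ratio intervals were run on simulated counts. The simulated cycling cells held member UMIs well above the threshold, so calls near it were not tested, nor were phases. Python 3.11.15, numpy 2.4.6, scipy 1.17.1 and pandas 2.3.3 were used.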

Additional observations from a re-analysis of the deposited data

How the results depend on the processing

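No paired analysis was possible because each line has 1 library, so leaving out a replicate was not possible either. The macrophage share stayed higher in PyMT-N under each alternative run, but thinned to 500 UMIs the intervals of the tumours overlapped. Each run counted Pclaf, Cenpa and Pcna in the call, and these members were higher in PyMT-N macrophages. The part of these genes in the difference of the shares was not tested. No run asked for more than 5 member UMIs, and with at least 10 the share was lower in PyMT-N (0.825% and 0.527%). The cycling shares below are in the order macrophages, then T cells, then NK cells, PyMT-M before PyMT-N, and the cause of each change was not tested. Thinned to 500 UMIs, shares were 3.67% and 5.32%, 9.78% (PyMT-M T cells), 9.66% and 13.9%, and 0% in both neutrophil classes. Thinned to 2000 UMIs they were 10.5% and 17.8%, 22.7% and 30.6%, and 20.6% (PyMT-M NK cells). Without thinning they were 22.4% and 31.1% (a difference of 8.62 points), 33.8% and 25.7% (-8.08 points), 40.7% (PyMT-M NK cells), 16.8% (PyMT-M dendritic cells), 6.67% and 6.47% (monocytes) and 0.361% (PyMT-N neutrophils). With at least 2 member UMIs they were 9.96% and 17.2%, 20.4% and 19.8% (PyMT-M T and NK cells) and 0.384% (PyMT-N neutrophils). With at least 5 they were 3.79% and 6.503%, 10.6%, 10.7% and 0%. With all 40 members they were 9.30% and 14.4%, 19.9%, 20.3% and 0.960%. Without the deepest PyMT-M neutrophil-class cell that class had 0% and 547 CPM. The lowest of 20 other draws gave 0% in both neutrophil classes. These draws, gates 1.5 times as high and leaving out shared barcodes or that cell were chosen after seeing the data.

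S shares moved without thinning to 66.2% (PyMT-M macrophages), 64.0% and 63.6% (T cells) and 62.7% (PyMT-M NK cells), and with at least 5 member UMIs to 32.4% (PyMT-M macrophages). In other draws they reached 47.7% in PyMT-M macrophages, 57.7% and 58.8% in T cells, and as little as 32.3% and 0% in NK cells.

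Leaving out cells with any UMI of another class's markers kept few and shallow cells. Shares were then 17.5% in PyMT-N macrophages (a difference of 10.8 points), 9.52% and 2.86% in T cells (-6.67 points), 7.69% in PyMT-M NK cells and 0% in PyMT-M dendritic cells, and 45.1% of cycling PyMT-M macrophages were S. The log2 ratios of the sums were 0.85 in macrophages and, with the direction turned, -1.41 in T cells. They were -0.093 in NK cells and -0.75 in dendritic cells, with intervals that included 0. The member medians were 0.70 in macrophages and -1.38 in T cells. Members past 2-fold toward PyMT-N then numbered 8 in macrophages and 0 in T, NK and dendritic cells, and toward PyMT-M 13 in T cells and 0 in NK cells.

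With doublets kept, the log2 ratios of the sums were 0.34 in T and 1.13 in NK cells, PyMT-N levels 5109 and 7754 CPM, and 1 member was past 2-fold toward PyMT-M in NK and in dendritic cells and 1 toward PyMT-N in T cells. With no minimum of UMIs, the counts of members past 2-fold were 5 dendritic and 3 monocyte ones toward PyMT-M, and 20 and 13 toward PyMT-N. With a pseudocount of 10 CPM, 1 NK member and 0 T and monocyte members were so in PyMT-M, and 0 T members in PyMT-N. Scaled by the median ratio, the sums gave 0.46 in macrophages, 0.57 in T and 1.43 in NK cells, and 5 T members past 2-fold toward PyMT-N. Few UMIs per cell limit single phase calls, and few cells limit the NK, dendritic and monocyte classes of PyMT-N.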
